A study of Mus musculus with 6 samples.

Results

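The genes described here are 33 mouse genes of fatty acid and cholesterol synthesis: the enzymes that make fatty acids from acetyl-CoA, the enzymes that make cholesterol, and the proteins that switch both sets on. They were chosen by name for their place in these pathways, not by a threshold on the values, and all 33 were found among the 26789 genes of the table. They were read in microglia, the macrophages that reside in brain tissue, taken at postnatal day 15 (P15) from the rostral nucleus of the solitary tract (NST), the brainstem relay for taste. Controls (C57Bl/6 mice, 3 libraries) were raised on standard chow, and E3–E12 diet mice (3 libraries) were born to dams that ate a low sodium chow from day 3 to day 12 of gestation and standard chow afterwards. Each library was a pool of 6 littermates, so a litter is the replicate and the mice within a pool cannot be told apart. The study's methods describe sorting of dissociated cells with magnetic beads against CD11b, whereas the design deposited with the data names laser microdissection. By the study's methods, both groups went through the same isolation and RNA amplification.

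Fatty acid synthesis starts in the cytosol, where Acly and Acss2 supply acetyl-CoA, acetyl-CoA carboxylase (Acaca and Acacb) makes malonyl-CoA, and fatty acid synthase (Fasn) builds palmitate, which desaturases then modify. Cholesterol synthesis also starts from acetyl-CoA, runs through mevalonate and isoprenoids to squalene, and ends in a series of steps that trim the sterol ring. Both branches are transcribed under the SREBP factors, which are held in the endoplasmic reticulum by Scap and the Insig proteins while sterols are plentiful and released when sterols run short. In the developing brain, cholesterol is made locally, largely by glia, and oligodendrocytes need much of it to build myelin.

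The deposited values are normalized counts, that is, read counts per gene after the authors' scaling, and they are on a linear scale. They summed to between 9407141 and 17204618 per library, and the 33 genes together took between 0.107% (control replicate 3) and 0.207% (control replicate 1) of that sum. Control replicate 2 stood apart from the others: it listed 10640 genes at 0, against 3459 to 7135 in the other libraries. The 10 microglia markers read (among them Cx3cr1, P2ry12, Tmem119 and Csf1r) were above 0 in every library, with a summed level of 101720 to 513550 normalized counts in the controls and 101650 to 315330 in E3–E12 diet mice. The highest of these sums, 513550, was that of control replicate 2. The other brain cells whose markers were read include those known to make much cholesterol. The 10 oligodendrocyte markers, among them the myelin gene Mog, summed to 5142 to 44062 normalized counts in the controls and 5985 to 24395 in E3–E12 diet mice, with Mag at 0 in 4 libraries (control replicate 3 and all E3–E12 diet libraries) and Opalin at 0 in control replicate 2. The 8 astrocyte markers summed to 1929 to 9220 and 4391 to 9769 normalized counts, and Gfap and Aldh1l1 were at 0 in control replicate 2. The summed levels of both marker lists overlapped between diets, as did those of the precursor, neuron, endothelial and choroid plexus markers. Control replicate 2 had the lowest summed astrocyte (1929), neuron (623) and endothelial (5282) markers of all libraries. Its oligodendrocyte, precursor and choroid plexus sums were not the lowest. A higher mean log2 level in E3–E12 diet mice was seen in 5 of 5 precursor markers (median log2 fold change 0.94), 7 of 8 astrocyte markers (0.76), 5 of 8 neuron markers (1.09) and 4 of 7 endothelial markers (1.21). It was seen in 3 of 10 oligodendrocyte markers (-0.37), 1 of 6 choroid plexus markers (-1.46) and 0 of 10 microglia markers (-0.26). The part of these cells in the values that follow was not tested. In bulk libraries such as these, fewer cells of a type and less RNA per cell cannot be told apart.

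The sequence just before the start site gives a view of the genes that does not depend on the RNA values. RefSeq promoter windows (GRCm38.p6, 250 bases before to 50 bases after a start) were matched by symbol for 27 of the 33 genes. The CCAAT box, the core letters bound by NF-Y, a factor known to work beside SREBP, was present on either strand in 23 of these 27 genes (85.2%), against 42.3% of all 17492 protein-coding genes with a window. The letters GGGCGG, an Sp1 site, were also in 23 of 27 (85.2%, against 49.2%). The E-box CACGTG was in 5 of 27 (18.5%, against 8.91%). A strict form of the sterol regulatory element, TCACNCCAC, was found in 1 gene of the 27, Hmgcs1 (3.7%, against 1.41%), and looser forms were not searched. A match of letters is a description of the window and not evidence that a factor was bound in these cells.

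The stretches below were chosen because they hold these letters in the genes on which the later results turn: the first enzyme committed to mevalonate (Hmgcs1), fatty acid synthase (Fasn), the sterol-sensing retention protein Insig1, and Cyp51 and Pmvk, whose groups did not overlap. They end just before the outermost annotated start, are written 5′ to 3′ on the strand of the gene, and carry the matched letters on either strand in capitals (ATTGG and CCGCCC are the CCAAT box and the Sp1 letters read on the opposite strand). In Hmgcs1 (chr13:119690201-119690350, plus strand) the capitals mark, in order, the sterol regulatory element, an Sp1 site, a CCAAT box and another Sp1 site. Fasn (chr11:120824548-120824697, minus strand) holds CCAAT boxes alone, a pair of which overlap as CCAATTGG. Insig1 (chr5:28071213-28071362, plus strand) holds a pair of Sp1 sites and an E-box. Cyp51 (chr5:4104747-4104896, minus strand) holds an Sp1 site, and Pmvk (chr3:89454391-89454540, plus strand) a CCAAT box. The full windows hold further matches outside the printed stretches, among them a CCAAT box in Cyp51 and in Insig1.
Hmgcs1: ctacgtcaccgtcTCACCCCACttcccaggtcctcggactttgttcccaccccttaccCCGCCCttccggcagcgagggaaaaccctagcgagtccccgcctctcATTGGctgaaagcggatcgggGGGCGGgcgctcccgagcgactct
Fasn: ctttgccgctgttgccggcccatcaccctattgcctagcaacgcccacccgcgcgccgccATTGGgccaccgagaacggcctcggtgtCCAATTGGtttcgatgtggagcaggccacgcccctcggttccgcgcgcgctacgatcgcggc
Insig1: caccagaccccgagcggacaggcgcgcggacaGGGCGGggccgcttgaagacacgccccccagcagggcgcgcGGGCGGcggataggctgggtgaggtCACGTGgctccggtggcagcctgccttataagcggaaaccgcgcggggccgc
Cyp51: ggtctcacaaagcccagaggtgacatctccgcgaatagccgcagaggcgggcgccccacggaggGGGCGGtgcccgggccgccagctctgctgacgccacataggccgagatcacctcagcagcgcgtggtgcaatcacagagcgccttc
Pmvk: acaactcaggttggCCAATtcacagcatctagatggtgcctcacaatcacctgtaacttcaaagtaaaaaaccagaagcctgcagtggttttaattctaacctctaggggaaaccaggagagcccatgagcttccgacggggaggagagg

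The diets were compared gene by gene to see whether lipid synthesis differed in the microglia of E3–E12 diet mice. All 33 genes had a mean of at least 10 normalized counts and were tested, and none passed the adjusted threshold of 0.1 (0 genes, limma, Benjamini-Hochberg over 18007 genes, each with an adjusted p of 0.999). Of all genes tested, 0.0% passed, the smallest adjusted p in limma being 0.225. An unadjusted p under 0.05 was reached by 0 of the 33 genes and by 1.82% of all genes tested, although Pmvk, Insig2 or Fasn reached it under some alternatives. In what follows, a log2 fold change is the mean of log2(normalized count + 1) in E3–E12 diet libraries minus that in controls, and a positive value is a higher level in E3–E12 diet mice. By sign alone, 21 of the 33 genes had a higher and 12 a lower mean log2 level in E3–E12 diet mice (63.6% higher, against 54.4% of all genes tested). The median log2 fold change was 0.22, against 0.09 over all genes tested. When every library was scaled to the same total of nuclear genes, the median of all genes moved to 0.24 and that of the 33 genes to 0.38. Quantile normalization gave 0.00 and 0.23. Without control replicate 3 the order turned, at 0.13 for all genes and -0.14 for the 33 genes, of which 48.5% were then higher, against 55.3% of all genes.

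An absolute log2 fold change above 1 was seen in 9 of the 33 genes (27.3%, against 28.9% of all genes). It was seen in 7 without control replicate 2, 13 without control replicate 1 and 14 without control replicate 3. The share of all genes was not computed with a library left out, so these counts cannot be read as a trait of the pathway. The median standard error over the 33 genes was 0.793, and each 95% confidence interval included 0, so a doubling or halving of a typical gene of this pathway was not detectable with 3 litters per group. Every E3–E12 diet library lay above every control in 2 genes (6.06%, against 2.99% of all genes tested), Fdft1 and Cyp51, and below every control in 2 genes (6.06%, against 2.91%), Pmvk and Idi1. Each of these shares rests on 2 genes. For a single gene, an exact permutation test of 3 against 3 libraries cannot give a two-sided p below 0.1.

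**Figure D1:**
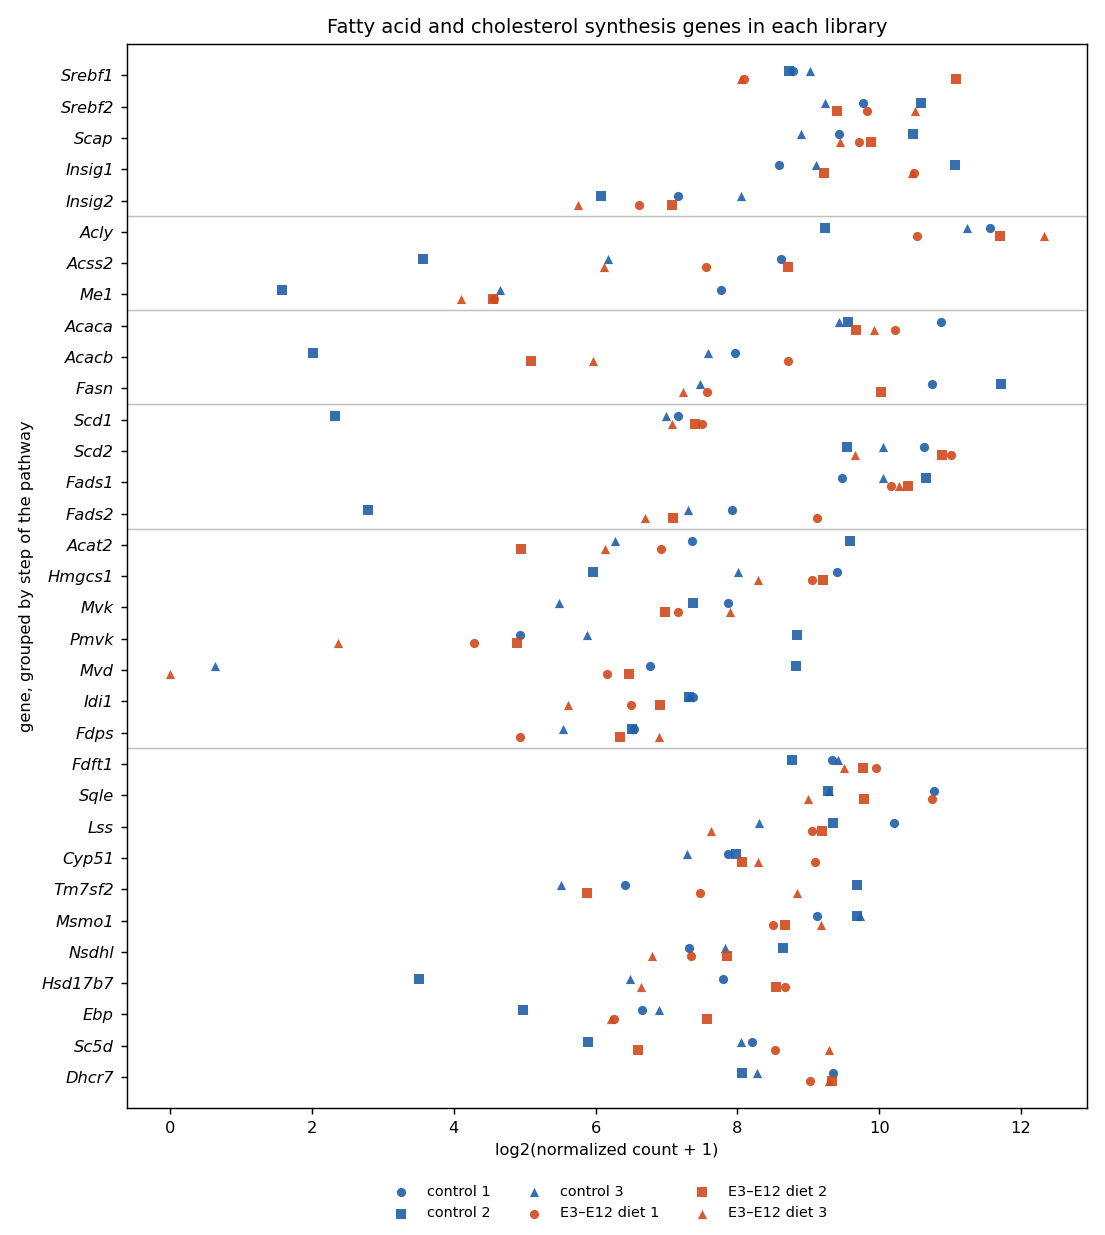
Level of each of the 33 genes in each library, as log2(normalized count + 1) on the x axis, with 1 point per library (blue, control; orange, E3–E12 diet; circle, square and triangle, replicates 1, 2 and 3). The blue squares of control replicate 2 lie far to the left in Acss2, Me1, Acacb, Scd1, Fads2 and Hsd17b7, and far to the right in Acat2, Pmvk and Mvd.

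**Figure D2:**
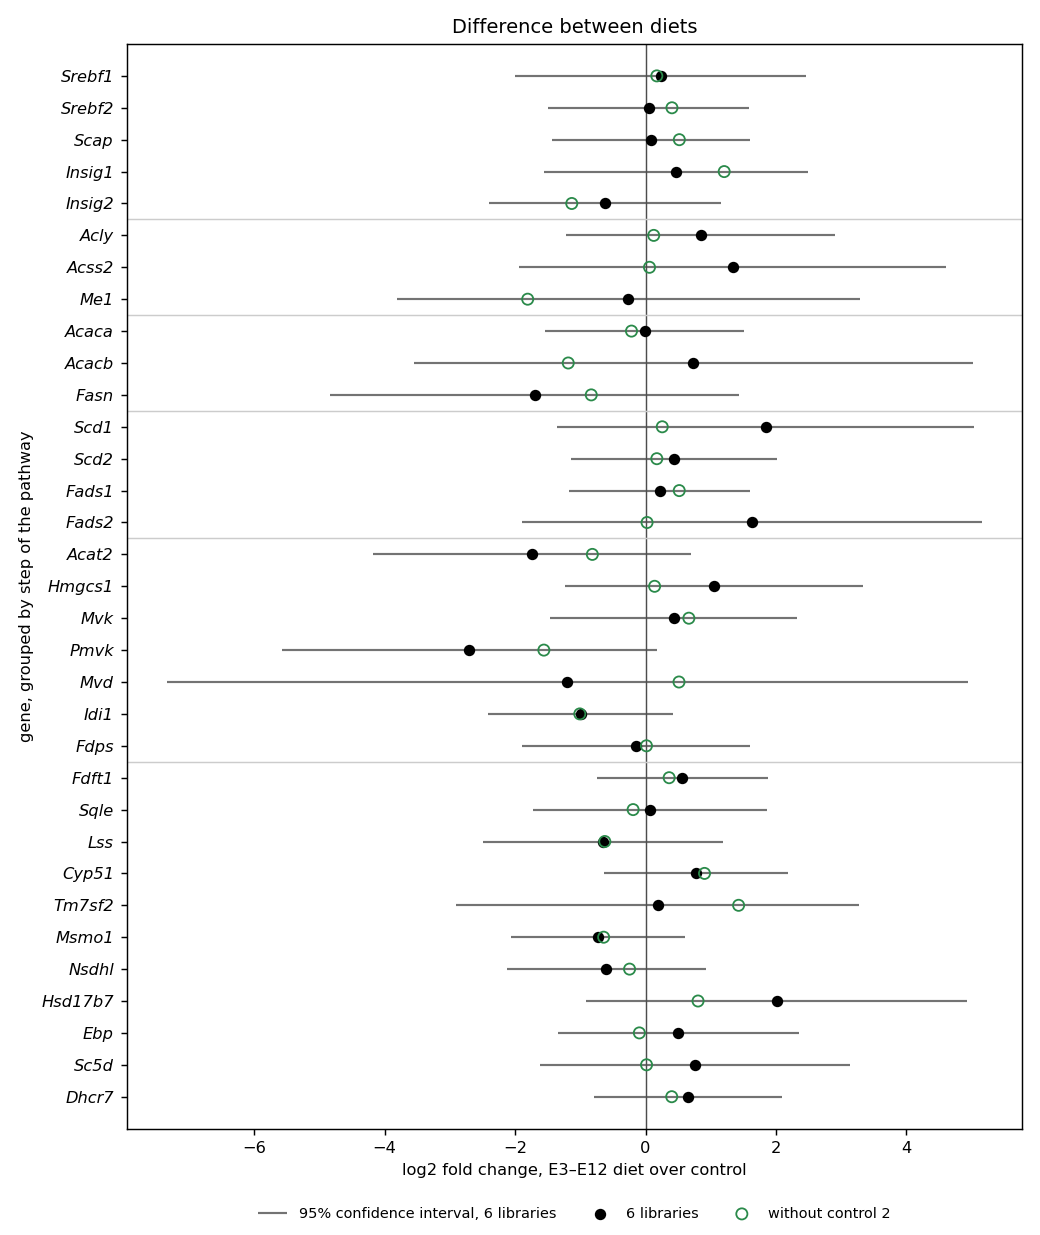
Log2 fold change of each gene, E3–E12 diet over control (filled points, with the 95% confidence interval from limma, 6 libraries) and the same without control replicate 2 (open points, 5 libraries). Every interval crosses 0, and the open points of Scd1, Fads2, Acss2 and Hmgcs1 lie close to 0.

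In each of the 5 regulators the diets overlapped. Values are given in the order of replicates 1, 2 and 3 of each diet. Srebf2, the SREBP factor that mainly drives cholesterol genes, had 873, 1533 and 604 normalized counts in the controls, and in E3–E12 diet mice 907, 674 and 1457. These ranges overlapped almost fully (log2 fold change 0.05, standard error 0.65, 95% confidence interval -1.5 to 1.59). Scap, the escort that carries SREBP out of the endoplasmic reticulum, had 688, 1424 and 474 normalized counts in the controls and 841, 940.3 and 694 in E3–E12 diet mice (log2 fold change 0.08, standard error 0.64). Srebf1, which mainly drives fatty acid genes, was tight in controls, at 441, 425 and 517 normalized counts, and wide in E3–E12 diet mice, at 271, 2174 and 265. E3–E12 diet replicates 1 and 3 thus lay below all controls and replicate 2 far above them. Its log2 fold change was 0.23 (standard error 0.94) and turned to -0.77 once E3–E12 diet replicate 2 was left out.

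The Insig proteins hold Scap back when sterols are present, and Insig1 is itself an SREBP target. Insig1 had 385, 2155 and 549.8 normalized counts in the controls and 1441, 593 and 1405 in E3–E12 diet mice, the highest value being that of control replicate 2 (log2 fold change 0.47, standard error 0.85). Without that library every E3–E12 diet value was above both remaining controls, with a log2 fold change of 1.21 (standard error 0.64). Insig2 went the other way, with 143, 66.1 and 265 normalized counts in the controls and 97.0, 134 and 52.7 in E3–E12 diet mice (log2 fold change -0.62, standard error 0.74, and -1.13, standard error 0.65, without control replicate 2). Without control replicate 2, complete separation was also more frequent in general: 6.66% of all genes lay above and 7.7% below, and among the 33 genes it was 5 above (Insig1, Scap, Fads1, Cyp51 and Fdft1) and 4 below (Insig2, Me1, Pmvk and Idi1). This count without control replicate 2 was added after the values were seen.

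The 3 genes that supply acetyl-CoA and NADPH were dominated by single libraries. Acly, ATP citrate lyase, had 3020, 604 and 2403 normalized counts in the controls and 1485, 3345 and 5113 in E3–E12 diet mice. Its log2 fold change of 0.84 (standard error 0.86) became 0.13 without control replicate 2. Acss2, which makes acetyl-CoA from acetate, had 390.5, 10.9 and 71.4 normalized counts in the controls and 187, 417 and 68.2 in E3–E12 diet mice, so that the difference again came from control replicate 2 (log2 fold change 1.34, standard error 1.37, and 0.06 without that library). Me1, malic enzyme, an NADPH source, had 217, 1.99 and 24.2 normalized counts in the controls and 22.7, 22.5 and 16.1 in E3–E12 diet mice, a narrow range in the diet group inside a wide control range. The log2 fold change of Me1 was -0.26 (standard error 1.48), or -1.81 without control replicate 2, and other annotated genes, mostly Gm7049, hold 28.3% of its 50-base windows, so its level is uncertain.

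Of the 3 genes of the synthesis step itself, Fasn had the largest difference. Fasn had 1713, 3364 and 177 normalized counts in controls, against 189, 1044 and 149.6 in E3–E12 diet mice. A single low control (replicate 3) and a single high E3–E12 diet library (replicate 2) made the groups overlap (log2 fold change -1.70, standard error 1.31, 95% confidence interval -4.84 to 1.44). Leaving out 1 library at a time moved it between -2.95 (without control replicate 3) and -0.83 (without control replicate 2), and limma's weighting of libraries by their quality turned it to 0.41. The study itself, testing with DESeq2 at an adjusted p under 0.1, listed Fasn as lower in E3–E12 diet mice. In the limma test used here Fasn did not pass (adjusted p 0.999). Acaca, the main cytosolic carboxylase, had 1875, 751 and 691 normalized counts in the controls and 1191, 813 and 974 in E3–E12 diet mice, with a log2 fold change of -0.02 (standard error 0.64), although 30.4% of its 50-base windows are shared, mostly with Gm5182. Acacb, the carboxylase form tied to the mitochondrial surface, spread from 3.05 (control replicate 2) to 419 (E3–E12 diet replicate 1) normalized counts, with a log2 fold change of 0.73 (standard error 1.79), or -1.19 without control replicate 2.

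All 4 desaturases had a higher mean log2 level in E3–E12 diet mice (median log2 fold change 1.04), and none of them passed the test. Without control replicate 2 the median was 0.22, and without control replicate 1 it was 3 of 4 genes. Scd1, a stearoyl-CoA desaturase that makes oleate, had 142, 3.99 and 126 normalized counts in the controls and 179, 169 and 134 in E3–E12 diet mice. The E3–E12 diet libraries were close together, and the low mean of the controls came from replicate 2 alone (log2 fold change 1.84, standard error 1.34, and 0.26, standard error 0.50, without it). Fads2, the delta-6 desaturase of polyunsaturated fatty acids, had the same shape, with 241, 5.92 and 157 normalized counts in the controls and 554, 135 and 103 in E3–E12 diet mice (log2 fold change 1.63, standard error 1.48, and 0.02 without control replicate 2). Scd2, the form that prevails in the brain, had 1583, 744 and 1063 normalized counts in the controls and 2055, 1889 and 807 in E3–E12 diet mice, with overlap (log2 fold change 0.44, standard error 0.66). Fads1, the delta-5 desaturase, was with Fdft1 the steadiest of the 33 genes over the libraries (highest value 2.27 times the lowest in both), with 1129 ± 455 normalized counts in the controls and 1247 ± 103 in E3–E12 diet mice (SD, n = 3 libraries each, log2 fold change 0.22, standard error 0.58).

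**Figure D3:**
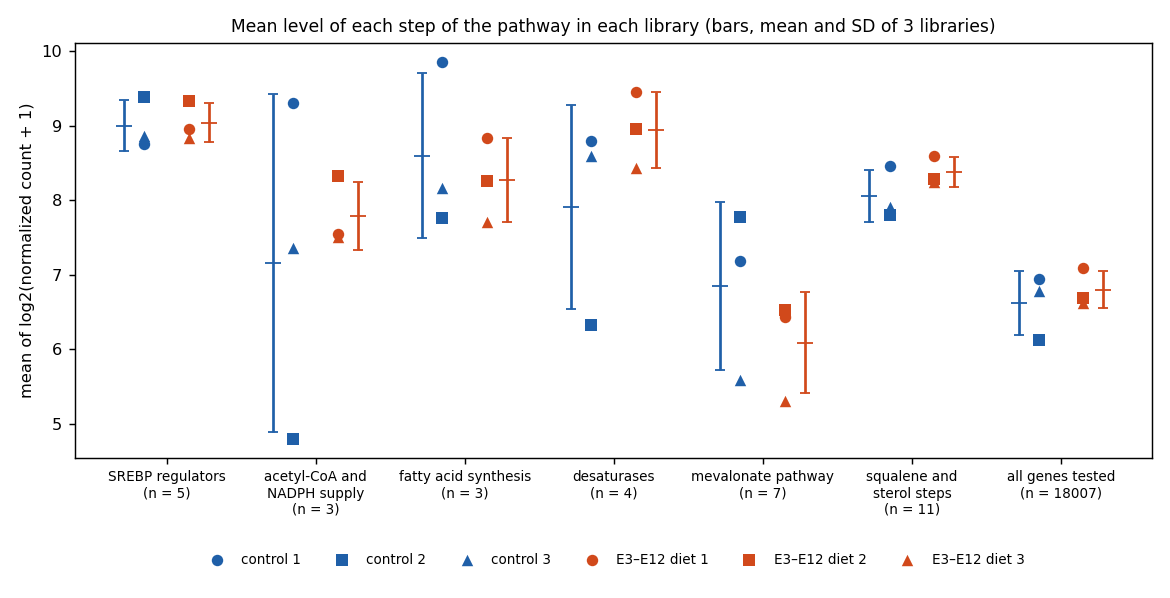
Mean of log2(normalized count + 1) over the genes of each step in each library (colours and shapes as for the plot of single genes), with bars for the mean and SD of the 3 libraries of a diet, and the same over all 18007 genes tested. Control replicate 2 is the lowest library in the desaturases (6.33) and in the supply genes (4.80), and the highest in the mevalonate pathway (7.78).

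Of the 7 genes of the mevalonate pathway, 5 had a lower mean log2 level in E3–E12 diet mice, with a median log2 fold change of -0.997, and none passed the test. This lean rested on control replicate 2, without which 3 of 7 were lower and the median was 0.01. Pmvk, phosphomevalonate kinase, had the largest difference of all 33 genes and their smallest unadjusted p (0.0614 from limma). It had 29.6, 457 and 57.5 normalized counts in the controls and 18.5, 28.6 and 4.14 in E3–E12 diet mice, so every E3–E12 diet value was below every control, by a small step between 28.6 and 29.6 (log2 fold change -2.70, standard error 1.2, 95% confidence interval -5.58 to 0.17). Control replicate 2 carried much of it, and without that library the log2 fold change was -1.56 (standard error 0.91). Idi1, isopentenyl-diphosphate isomerase, was the tightest of these genes in controls, at 165, 159 and 159 normalized counts, against 89.5, 119.6 and 48.0 in E3–E12 diet mice (161 ± 3.85 against 85.7 ± 36.0, SD, n = 3 libraries each). Its log2 fold change of -0.997 (standard error 0.59, 95% confidence interval -2.42 to 0.42) ranged from -1.28 to -0.63 when single libraries were left out. 25.3% of the 50-base windows of Idi1 also occur in other annotated genes, and its groups overlapped after scaling to the same nuclear total, while those of Pmvk overlapped after quantile normalization.

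Acat2, the cytosolic thiolase that makes acetoacetyl-CoA, had 163, 770.4 and 76.5 normalized counts in the controls and 121, 29.9 and 68.9 in E3–E12 diet mice (log2 fold change -1.74, standard error 1.02, and -0.82 without control replicate 2). Its values are uncertain, because 39.1% of its windows are shared with its neighbour and close copy Acat3. Hmgcs1, HMG-CoA synthase, which carries the sterol regulatory element printed above, had 673, 61.6 and 257 normalized counts in the controls and 528, 588 and 311 in E3–E12 diet mice. Only control replicate 2 stood clearly below the rest (log2 fold change 1.05, standard error 0.95, and 0.14 without it). Mvd, mevalonate diphosphate decarboxylase, ran from 0 (E3–E12 diet replicate 3) and 0.541 (control replicate 3) to 453 (control replicate 2) normalized counts, and replicate 3 of both diets was thus near 0 (log2 fold change -1.20, standard error 2.57, and 0.51 without control replicate 2). Mvk, mevalonate kinase, averaged 147 ± 95.8 normalized counts in the controls and 168 ± 60.4 in E3–E12 diet mice (log2 fold change 0.43, standard error 0.79). Fdps, farnesyl diphosphate synthase, averaged 75.9 ± 26.2 and 75.8 ± 44.6 (log2 fold change -0.14, standard error 0.73), with 26.2% of its windows shared with other annotated genes.

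In the squalene and sterol steps 8 of 11 genes had a higher mean log2 level in E3–E12 diet mice, with a median log2 fold change of 0.50, and none passed the test. Without control replicate 2 it was 6 of 11, with a median of 0.02. Fdft1, squalene synthase, the step committed to sterols, had 645, 435 and 683 normalized counts in the controls and 988, 869 and 725 in E3–E12 diet mice. The groups did not overlap, and both had small spreads (588 ± 134 against 861 ± 132, SD, n = 3 libraries each, log2 fold change 0.57, standard error 0.55, 95% confidence interval -0.74 to 1.87). The exons of Fdft1 overlap on the opposite strand with those of Ctsb, the abundant lysosomal protease cathepsin B, over 18.3% of their length. Whether reads were counted by strand is not given in the sources used here, so reads of the shared part cannot be assigned. Ctsb itself had 5892, 12078 and 13336 normalized counts in the controls and 4723, 9938 and 12636 in E3–E12 diet mice, and it was thus lowest in the library where Fdft1 was highest. Its part in the value of Fdft1 was not tested.

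Cyp51, lanosterol demethylase, had 231, 250.4 and 156 normalized counts in the controls and 546, 266 and 311 in E3–E12 diet mice. Every E3–E12 diet value was above every control (log2 fold change 0.77, standard error 0.59, 95% confidence interval -0.64 to 2.19), and the log2 fold change ranged from 0.46 to 0.98 when single libraries were left out. After scaling to the same nuclear total the groups of both Fdft1 and Cyp51 overlapped, and after quantile normalization those of Fdft1 did. Sqle, squalene epoxidase, a control point of sterol synthesis, had 1740.5, 617 and 627 normalized counts in the controls and 1709, 880.1 and 511 in E3–E12 diet mice, with replicate 1 of both diets high (log2 fold change 0.06, standard error 0.75). Hsd17b7, a sterol ketone reductase, had 222, 10.4 and 88.3 normalized counts in the controls and 405, 371 and 98.4 in E3–E12 diet mice, the largest positive difference of the 33 genes (log2 fold change 2.02, standard error 1.22, and 0.81, standard error 0.87, without control replicate 2).

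The other enzymes of the squalene and sterol steps showed no common direction. Msmo1, the C-4 methyl oxidase, had 555, 826 and 847 normalized counts in the controls and 359.9, 406 and 579 in E3–E12 diet mice, with 1 E3–E12 diet library above the lowest control (log2 fold change -0.73, standard error 0.56). Nsdhl, which acts in the same demethylation complex, averaged 260.5 ± 123 normalized counts in the controls and 167 ± 60.0 in E3–E12 diet mice (log2 fold change -0.60, standard error 0.64). Lss, which closes squalene epoxide into lanosterol, averaged 712 ± 435 and 437 ± 209 (log2 fold change -0.65, standard error 0.77). Dhcr7, the last step of the Kandutsch-Russell branch, averaged 409 ± 211 and 596 ± 64.9 (log2 fold change 0.65, standard error 0.60). Sc5d and Ebp, a desaturase and an isomerase of the ring, had log2 fold changes of 0.76 (standard error 0.99) and 0.50 (standard error 0.78), which became 0.02 and -0.09 without control replicate 2. Tm7sf2, a sterol reductase, reached 822 normalized counts in control replicate 2 and 456 in E3–E12 diet replicate 3, against 44.7 to 176 elsewhere (log2 fold change 0.19, standard error 1.29, and 1.43 without control replicate 2).

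Averaged over the 10 genes of supply, synthesis and desaturation, the mean log2 level was 9.27, 6.30 and 8.09 in the controls, and in E3–E12 diet mice 8.69, 8.55 and 7.94. Over the 18 genes from Acat2 to Dhcr7 it was 7.96, 7.79 and 7.01 in the controls and 7.76, 7.61 and 7.10 in E3–E12 diet mice. The fatty acid branch was thus spread widely among controls (7.89 ± 1.5) and narrowly among E3–E12 diet libraries (8.39 ± 0.40), and the sterol branch differed by -0.10 (7.49 ± 0.34 against 7.59 ± 0.51, SD, n = 3 libraries each). In both diets replicate 3 had the lowest mean of the sterol branch. These libraries also had the lowest oligodendrocyte marker sums (5142 in the control and 5985 in E3–E12 diet mice, against 17787 to 44062 elsewhere). Their precursor marker sums were the lowest as well (465 and 512, against 1497 to 5271). Whether cell content bears on the level of the sterol branch was not tested. Control replicate 2 was the lowest library for 13 of the 33 genes (39.4%), close to its share among all genes tested (40.1%, libraries tied at 0 each counted), and the highest for 10 (30.3%, against 26.3%). E3–E12 diet replicate 3 was the lowest for 9 (27.3%, against 16.1%).

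**Figure D4:**
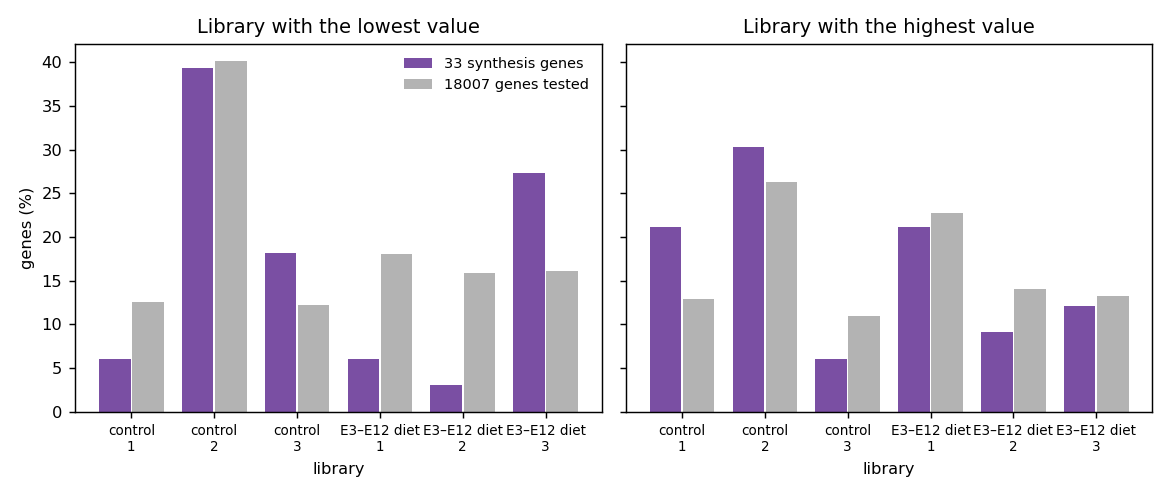
Percentage of the 33 synthesis genes (purple) and of all 18007 genes tested (grey) for which each library had the lowest (left) or the highest (right) value. Control replicate 2 holds the extremes in both sets, being the lowest in 39.4% and 40.1% and the highest in 30.3% and 26.3%.

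Levels were compared between genes only as normalized counts per kilobase of exon. On this scale Acly was the highest of the 33 genes, with a mean of 504 over the 6 libraries and a range of 114 to 969, followed by Insig1 (352) and Scd2 (248). Fads1 (247) and Sqle (183) came next in this order, and the ranges of these genes over the libraries overlapped. Me1 (13.2), Acacb (16.6), Fdps (18.0) and Acss2 (18.8) were at the bottom, and no library of Me1 (0.517 to 56.3) reached the lowest value of Acly. The balance of paired proteins was then compared between diets as a log2 ratio per kilobase, in 4 pairs picked after the values were seen. Insig1 exceeded Insig2 in all 6 libraries, by a log2 ratio of 1.59, 5.17 and 1.22 in the controls and 4.05, 2.31 and 4.88 in E3–E12 diet mice. Scd2 exceeded Scd1 in all 6 as well, by 3.31, 7.06 and 2.91 in the controls and 3.35, 3.32 and 2.42 in E3–E12 diet mice. Acaca also exceeded Acacb in every library, by 0.68 to 6.71. Srebf1 was below Srebf2 in 4 libraries and above it in control replicate 3 (0.13) and E3–E12 diet replicate 2 (2.04). The groups overlapped in all 4 ratios, and with 3 libraries against 3 no ratio could pass an exact test, so none is given. Without control replicate 2 every E3–E12 diet ratio of Insig1 to Insig2 was above both remaining controls. This follows from the values of Insig1 and Insig2 given above and is not a further result.

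A further 22 genes of the same pathways were listed beside the 33, and 21 of them were measured and tested. None passed the adjusted threshold, 1 (Mcat) had an unadjusted p under 0.05 (0.0477 from limma, against 1.82% of all genes), 8 had a higher and 13 a lower mean log2 level in E3–E12 diet mice, and the median log2 fold change was -0.04. The groups did not overlap in Mcat, the malonyl transferase of mitochondrial fatty acid synthesis, and in Gpam, which starts glycerolipid synthesis (1 of 21 genes in each direction, 4.76%, against 2.99% of all genes above and 2.91% below). Mcat had 31.8, 33.6 and 83.3 normalized counts in the controls and 140.5, 314 and 89.0 in E3–E12 diet mice (log2 fold change 1.80, standard error 0.74, adjusted p = 0.999 from limma). Gpam had 224, 193 and 185.03 normalized counts in the controls and 184.97, 137 and 141 in E3–E12 diet mice, a gap of less than 1 normalized count (log2 fold change -0.38, standard error 0.53).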

How the data were processed

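Microglial RNA of 3 control and 3 E3–E12 diet litters was sequenced, and the authors deposited 1 table of normalized counts (unit: signal) for 26789 genes, of which 26507 were matched to a symbol through GENCODE M21. Per the labels, the submitters' processing notes name FastQC, STAR, featureCounts, DESeq2 and GRCm38. Versions, strand setting and read numbers per gene are not given in the sources used here. The deposited values are not whole and share no step per library, so reads could not be recovered and depth is unknown. The file's name mentions surrogate variables, and an adjustment of the values for them is not described. A count model was therefore not used.

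The 18007 genes whose normalized counts averaged 10 or more were compared on log2(normalized count + 1) with limma 3.58.1 in R 4.3.3, two-sided, with a constant prior variance, Benjamini-Hochberg adjustment over all of them and the study's threshold of 0.1. A pseudocount understates changes of low genes. The script was tested on simulated data. The 33 genes, the other lists and the tests were chosen with earlier results of these data known. Values per library were printed for genes whose groups did not overlap, the 6 next largest changes and 10 landmark genes, and, chosen after their values were seen, Acly, Me1, Acaca and Msmo1. Other members are given by their levels. Values of some single genes of the other lists are not reported here. Nothing states that litters of 1 group were processed apart, so p-values measure the spread between these libraries. The share of 50-base windows of a gene's transcripts that occur in other annotated genes, and exon overlaps and lengths, came from GENCODE M21. The window of 50 bases is the read length in the study's methods, whereas the labels give 75 bases. Shares for windows of 75 bases were not computed. Other pseudocounts, filters, scalings, weights, a replicate block and leaving out each library were tried as alternatives.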

Additional observations from a re-analysis of the deposited data

How the results depend on the processing

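Of the 33 genes, 0 passed the adjusted threshold under any alternative run (other pseudocounts, no filter or a mean of at least 100, quantile normalization, equal nuclear totals, limma-trend, array weights, the replicate block, or each library left out). Over all genes the count was 0 except with array weights, which gave 5. Of 161 log2 fold changes of the 18 genes described in full under the settings that kept all libraries, 160 kept their direction, and Fasn turned to 0.41 with array weights. The filters, limma-trend and the replicate block leave a log2 fold change as it is, so their part of the 161 could not turn. Only the pseudocounts, the scalings and array weights could change a direction. Whether the replicate numbers of the labels pair the libraries could not be decided. Same-numbered deviations correlated at 0.26, 0.0348 and 0.142 across genes, and differently numbered ones at -0.251 to 0.0869. The same number was the best match for control replicates 1 and 3, while control replicate 2 correlated best with E3–E12 diet replicate 3 (0.0869). Deviations were taken from the mean of each diet, so these correlations depend on each other. The replicate block cannot change a log2 fold change, because each number holds 1 library of each diet. The 21 genes with a higher mean and the median log2 fold change of 0.22 were thus fixed in advance. With the block, 0 of the 33 genes passed, and genes with an unadjusted p under 0.05 went from 327 to 468 among all genes tested. At that level Pmvk passed with the replicate block, a pseudocount of 10, array weights and without control replicate 1, Insig2 with array weights, and Fasn without control replicate 3, each with a limma adjusted p between 0.738 and 0.999. With a mean of at least 100 the median log2 fold change was 0.23 in the genes left of the 33 and -0.02 in all genes.

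With each library left out, the number of genes higher in E3–E12 diet mice was between 16 and 20 and the median log2 fold change between -0.14 (without control replicate 3) and 0.44 (without control replicate 1). Complete separation was seen in 2 to 7 genes above controls and in 3 to 6 below. Separation is more frequent when a library is left out: above controls it was 7 (21.2%, against 9.58% of all genes) without control replicate 1, 5 (15.2%, against 6.66%) without control replicate 2 and 5 (15.2%, against 7.93%) without E3–E12 diet replicate 3, and below controls it was 6 (18.2%, against 5.68%) without control replicate 3 and 4 (12.1%, against 7.7%) without control replicate 2. In the remaining cases the shares lay closer together, mostly 9.09% of the 33 genes beside 6.23% to 8.19% of all genes. The lowest share, 6.06% (above controls, control replicate 3 left out), was under the 6.85% of all genes. All these shares were added after the values were seen. Separation was seen with equal nuclear totals in 1 gene above (Fads1 in place of Fdft1 and Cyp51). 13 of the 18 genes kept their direction with every library left out. The exceptions ranged from -0.03 to 1.21 (Insig1), -0.27 to 0.52 (Scap), -0.39 to 0.56 (Sqle), -0.77 to 0.74 (Srebf1) and -0.27 to 0.41 (Srebf2). Without control replicate 2, 5 of the 33 genes changed direction. The causes were not tested. With 3 litters a group and depth unknown, absence of a call does not show equal levels.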
